A study of Mus musculus with 45 samples.

Results

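The change in gene expression from 0 h to 1 h of lipopolysaccharide (LPS) in mouse embryonic fibroblasts (MEFs) without p53 was set against the same change in wild type (WT) MEFs. LPS comes from the cell wall of Gram-negative bacteria, and MEFs are connective tissue cells grown from embryos. The comparison was defined by the sample labels and used 6 of the 45 RNA-seq libraries of the series. These were WT at 0 h and at 1 h (1 library each) and p53-/- (called p53KO here) at 0 h and at 1 h (2 libraries each, from the lines KO-1 and KO-2). All were primary cells of strain C57BL/6, starved of serum overnight in 0.5% bovine calf serum, and the 1 h cultures received LPS at 100 ng/ml. The 0 h libraries received no agent. The series also holds libraries at 0.5, 3 and 8 h of LPS and of 2 cytokines, which served for comparison. The study describes the p53KO cells as biological replicates and the WT cells as their littermate control, and it used the mutation to let primary cells be propagated for longer.

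WT had no replicate at either time, so its changes carry no test of their own. Every WT value below is therefore 1 library. Its error was taken from the spread between the 2 p53KO libraries of each of the 15 p53KO groups in the series. The labels do not say whether KO-1 and KO-2 came from separate embryos, so the p-values measure only the spread between these libraries, which may be technical. Levels are given in CPM, a gene's count relative to its library's scaled total. In such bulk samples, fewer responding cells and less RNA per cell cannot be told apart.

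LPS is sensed at the cell surface by Tlr4 with its partners Ly96 and Cd14, and adaptor proteins such as Myd88 pass the signal to NF-kB and to MAP kinases. NF-kB is held in the cytoplasm by inhibitor proteins, chiefly the product of Nfkbia, and once released it switches on inflammatory genes together with genes for its own inhibitors. MAP kinases drive immediate early genes such as Egr1 and Fos, which need no new protein to be transcribed. p53 is a transcription factor of the response to DNA damage, with Cdkn1a and Mdm2 among its best known targets.

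Trp53 encodes p53 and lies on chromosome 11 (mm9, 69393861 to 69405375; ENSMUSG00000059552). Its level in WT was 189 CPM at 0 h and 171 CPM at 1 h. It stood at 64.3 and 59.4 CPM in KO-1 and at 58.7 and 53.9 CPM in KO-2, so that all 4 p53KO libraries lay below both WT libraries. Its level was lower in p53KO by a log2 of -1.62 (SE 0.10) at 0 h and -1.60 (SE 0.10) at 1 h, and its 1 h change did not differ detectably (0.02, SE 0.14). Which part of the gene was deleted is not given in the sources used here. Gene counts in the 6 libraries totalled 8306641 to 11072939, and 16610 to 17292 genes had a count. The 18 fibroblast markers summed to 40654 to 48530 CPM. Markers of macrophages, which carry the LPS receptor, were also present in every library. Their sum (14 genes) was 483 and 577 CPM in WT at 0 and 1 h, 441 and 444 CPM in KO-1, and 384 and 395 CPM in KO-2. Lyz2 was the highest of those named here, at 174 to 323 CPM, and Ptprc, which marks blood cells, stood at 6.16 to 10.2 CPM. No macrophage marker was at 0, WT at 1 h had the highest sum, and the part of such cells in the results below was not tested. Endothelial markers summed to 22.1 to 39.7 CPM and epithelial ones to 36.9 to 59.8 CPM. Pecam1, Cdh5, Epcam and Cdh1 were all under 1 CPM, but other members were higher. Erg stood at 7.76 to 14.8 CPM and Krt19 at 19.3 to 31.4 CPM. Kdr stood at 7.14 and 9.65 CPM in WT and at 15.3 to 22.1 CPM in p53KO. Krt18 stood at 4.99 and 5.17 CPM in WT and at 19.2 to 21.6 CPM in p53KO. The muscle filament gene Des was higher in the p53KO libraries (100 to 118 CPM) than in WT (31.5 and 32.2 CPM).

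The change from 0 h to 1 h of LPS was lower in p53KO than in WT for a small group of genes and higher for 1. The group included the NF-kB inhibitor gene Nfkbia, the transcription factor genes Klf10, Irf1 and Bhlhe40, and the genes of the secreted proteins Lif and Cxcl10. The transcription factor gene Egr1 showed the opposite. By edgeR's quasi-likelihood test 19 of 13851 genes passed an adjusted p of 0.05 for the difference in the 1 h change, which is 0.137% of the genes tested. In 18 of them (0.13%) the change was lower in p53KO, and in 1 (0.00722%) it was higher. An unadjusted p under 0.05 was reached by 736 genes, about the number that this limit alone would give with no true difference. The lower differences ran from a log2 of -2.51 for Neat1 to -0.71 for Skil. Each held its sign when KO-1 or KO-2 was set against WT alone, with -2.78 to -0.76 in KO-1 and -2.32 to -0.66 in KO-2. Over all genes tested the median difference was 0.004, and 49.3% of genes lay below 0. Under 14 other settings of the analysis the number of called genes ran from 8 to 72. All 19 kept their sign in each, and 7 of them (Klf10, Bhlhe40, Kctd11, Irf1, Gadd45b, Id3 and Cxcl10) were called in each.

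**Figure D1:**
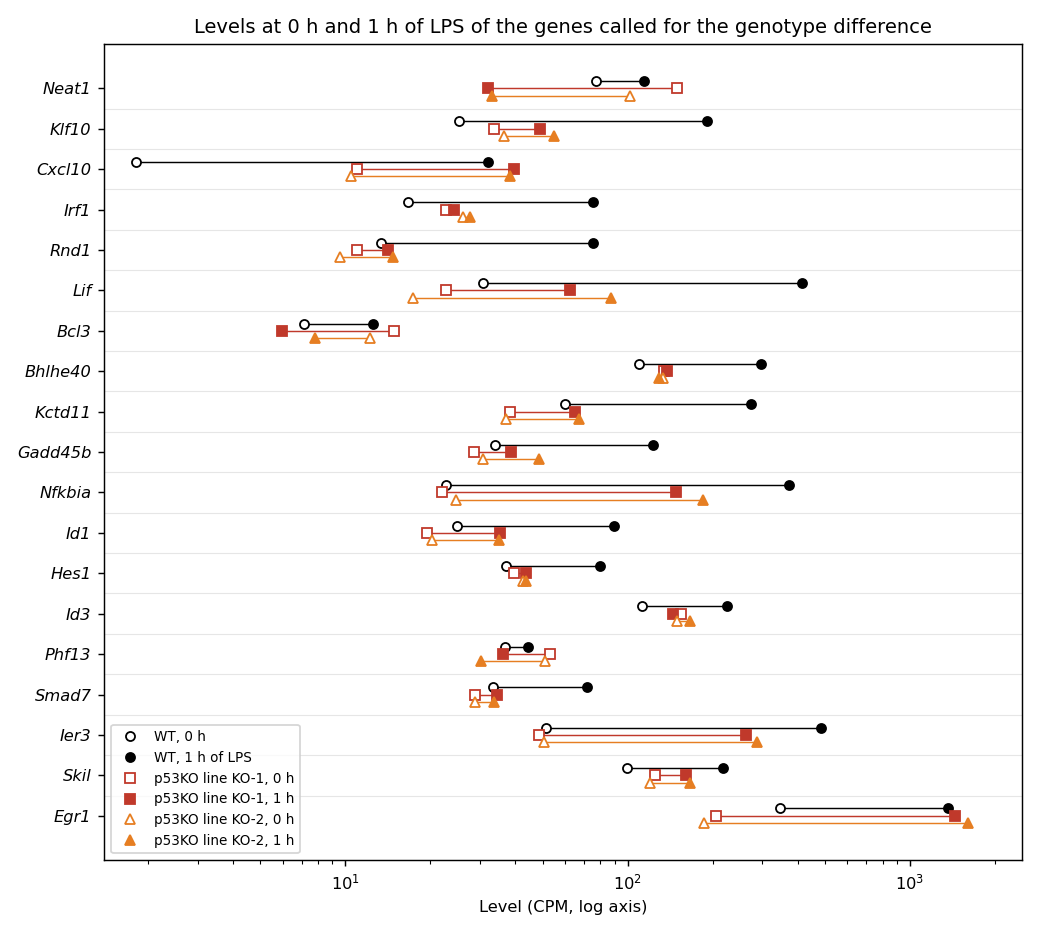
Level (CPM, log axis) of the 19 genes called for the difference in 1 h induction, with open symbols at 0 h and filled symbols at 1 h of LPS; WT is drawn as black circles, KO-1 as red squares, KO-2 as orange triangles, 1 library per symbol. At 1 h the filled WT symbol lies to the right of both p53KO symbols for every gene but Cxcl10 and Egr1.

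The arms of the difference were unlike in size. In p53KO, 736 genes (5.31% of those tested) differed between 0 and 1 h by edgeR's quasi-likelihood test, 387 higher (2.79%) and 349 lower (2.52%). By size alone, among genes with at least 5 CPM in the higher group, 106 genes (0.765%) were at least 2-fold higher in p53KO and 43 (0.31%) at least 2-fold lower. In the single WT pair the same limits gave 176 genes (1.27%) higher and 74 (0.534%) lower. The WT numbers come from 1 library against 1 and the p53KO numbers from means of 2, so they were not tested against each other.

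**Figure D2:**
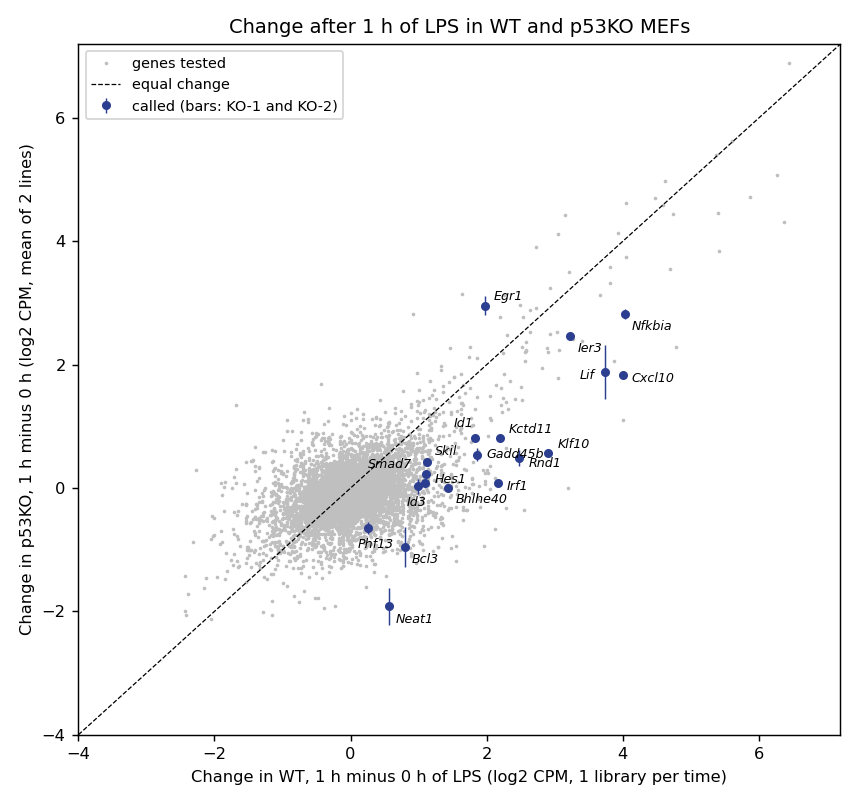
Change from 0 h to 1 h of LPS in p53KO (vertical, log2 CPM, mean of both lines) against WT (horizontal, log2 CPM, 1 library per time) for 13851 genes (grey) and the 19 called genes (blue, bars from KO-1 to KO-2). The 18 genes with a lower change in p53KO lie below the dashed line of equal change and Egr1 lies above it.

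Nfkbia (ENSMUSG00000021025, chromosome 12, 56590398 to 56593634 on mm9), which encodes the inhibitor IkB-alpha, rose in p53KO (adjusted p = 6.79e-15 by edgeR) but to a lower level than in WT. WT stood at 22.7 and 373 CPM at 0 and 1 h. KO-1 stood at 21.9 and 149 CPM, and KO-2 at 24.6 and 185 CPM. The 0 h levels overlapped and the 1 h levels did not. The 1 h level was 16.5-fold the 0 h level in WT and 7.17-fold in p53KO, so that the changes differed by -1.20 in log2 terms (SE 0.22, edgeR adjusted p = 0.0131). Without the KO-2 library at 0 h, or the KO-1 library at 1 h, this call was lost, with an adjusted p of up to 0.0958 by edgeR. Ier3, an early response gene tied to cell survival, followed the same order, from 51.4 to 482 CPM in WT, from 48.3 to 263 CPM in KO-1 and from 50.7 to 287 CPM in KO-2. Its difference was smaller (-0.76, SE 0.16, adjusted p = 0.0427 by edgeR). Gadd45b, whose product acts in stress kinase signalling, went from 33.8 to 123 CPM in WT but only from 28.5 to 38.7 CPM in KO-1 and from 30.8 to 48.4 CPM in KO-2 (-1.31, SE 0.19, adjusted p = 0.00104 by edgeR).

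Bcl3, which encodes a nuclear partner of NF-kB subunits, moved in opposite directions. It stood at 7.14 and 12.5 CPM in WT, at 14.8 and 5.97 CPM in KO-1 and at 12.2 and 7.81 CPM in KO-2. The p53KO libraries were above WT at 0 h and below it at 1 h, with changes that differed by -1.78 (SE 0.31, edgeR adjusted p = 0.00755). The predicted genes Gm16175 and Gm16174 overlap Bcl3 on the other strand, and the strand setting of the counting is not given in the sources used here.

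Nfkbia and Bcl3 were the only called genes among 24 tested NF-kB feedback and subunit genes, of which 17 lay below 0, with a median of -0.27. Over all genes 0.137% were called and 49.3% lay below 0, with a median of 0.004, and these shares are the background of each list below. Tnfaip3, the gene of the NF-kB inhibitor A20, had a wide gap in level that did not pass the test for the change. It stood at 8.05 and 351 CPM in WT, 8.71 and 101 CPM in KO-1 and 6.15 and 115 CPM in KO-2 (-1.57, SE 0.36, adjusted p = 0.115 by edgeR). The SE of its level difference was 0.33 at 0 h and 0.16 at 1 h. At 1 h alone its level was lower in p53KO by -1.70 (SE 0.16, adjusted p = 2.73e-08 by edgeR). Zc3h12a, an RNase gene that limits cytokine messages, had a difference of -1.12, Relb -0.92 and Nfkbiz -0.54, while the subunit genes Rela, Nfkb1 and Rel lay at -0.15, 0.09 and 0.02, none past the threshold.

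Promoters of 10 of the 19 called genes were searched (RefSeq table of GRCm38.p6, 250 bases before to 50 after the start). The chromosome that carries Egr1 and Smad7 was left out of this search. Whether the table holds promoters of these genes was therefore not tested. The letters of the kB motif, to which NF-kB binds, were found on either strand in those of Nfkbia, Irf1, Cxcl10, Bcl3, Ier3 and Lif. Irf1 had a further promoter in the table (chr11:53770223-53770522), which held no match. Among 32544 different promoter sequences of the same length, with no chromosome left out, 8.493% held them. That share counts promoters and not genes. The promoters of Nfkbia and Irf1, 2 genes with a smaller 1 h change in p53KO after LPS, of Cxcl10, and of Id3, where the letters were not found, are shown 5′ to 3′ in the direction of the gene. Capitals mark the kB matches, and the Cxcl10 run of capitals holds 2 overlapping ones at its second place.

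Nfkbia, chr12:55492598-55492897, minus strand: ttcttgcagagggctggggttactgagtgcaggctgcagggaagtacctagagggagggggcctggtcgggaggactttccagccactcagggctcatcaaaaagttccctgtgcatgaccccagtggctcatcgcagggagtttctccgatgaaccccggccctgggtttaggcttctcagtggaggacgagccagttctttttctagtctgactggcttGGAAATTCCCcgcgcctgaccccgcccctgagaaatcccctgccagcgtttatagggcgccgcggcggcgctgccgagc

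Irf1, chr11:53769764-53770063, plus strand: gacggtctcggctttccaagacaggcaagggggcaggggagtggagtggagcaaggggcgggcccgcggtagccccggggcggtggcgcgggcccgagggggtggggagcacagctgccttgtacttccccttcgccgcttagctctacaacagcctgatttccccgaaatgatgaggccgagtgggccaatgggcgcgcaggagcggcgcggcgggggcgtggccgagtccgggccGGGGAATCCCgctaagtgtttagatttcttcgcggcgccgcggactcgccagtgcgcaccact

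Cxcl10, chr5:92348840-92349139, minus strand: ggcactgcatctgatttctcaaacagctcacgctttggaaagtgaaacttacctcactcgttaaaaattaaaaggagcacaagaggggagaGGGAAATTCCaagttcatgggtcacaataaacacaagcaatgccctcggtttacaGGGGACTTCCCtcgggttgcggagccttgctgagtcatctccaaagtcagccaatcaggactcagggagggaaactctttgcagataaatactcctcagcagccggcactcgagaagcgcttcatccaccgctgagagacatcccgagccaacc

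Id3, chr4:136143572-136143871, plus strand: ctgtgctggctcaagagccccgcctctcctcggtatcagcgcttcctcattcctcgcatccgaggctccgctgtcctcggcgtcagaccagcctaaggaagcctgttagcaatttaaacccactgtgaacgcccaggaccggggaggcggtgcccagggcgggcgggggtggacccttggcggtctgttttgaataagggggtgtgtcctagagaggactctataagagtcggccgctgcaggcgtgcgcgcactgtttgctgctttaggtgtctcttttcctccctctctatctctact

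The match in Nfkbia began 29 bases before the start of transcription and that in Irf1 13 bases before it. In Cxcl10 the matches began 159, 104 and 103 bases before the start. A match describes the letters only.

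Irf1 (ENSMUSG00000018899, chromosome 11, 53583516 to 53591876 on mm9), a transcription factor gene of the interferon response, was higher at 1 h than at 0 h in the WT libraries but not detectably in p53KO. It stood at 16.7 and 75.4 CPM in WT, at 22.8 and 24.2 CPM in KO-1 and at 26.0 and 27.6 CPM in KO-2. Before LPS both p53KO libraries lay above WT, and at 1 h both lay far below it. The fitted change in p53KO was a log2 of 0.08 (SE 0.16) against 2.18 in WT, a difference of -2.09 (SE 0.27, adjusted p = 0.000119 by edgeR). Gm17334 overlaps Irf1 on the other strand.

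Cxcl10 (ENSMUSG00000034855, chromosome 5, 92775664 to 92777915 on mm9) encodes a chemokine for T cells and lies within Art3 on the other strand. Its level differed more at 0 h than at 1 h. It stood at 1.81 and 32.1 CPM in WT, at 11.01 and 39.6 CPM in KO-1 and at 10.4 and 38.2 CPM in KO-2. At 0 h its level was higher in p53KO by a log2 of 2.55 (SE 0.33, adjusted p = 3.84e-06 by edgeR), and at 1 h by 0.28 (SE 0.16, adjusted p = 0.254). The difference in change of -2.28 (SE 0.38, adjusted p = 0.00498 by edgeR) went with a higher level at 0 h. The WT 0 h level was low in all 3 such libraries of the series (1.81 to 3.18 CPM). At 3 h of LPS Cxcl10 stood at 289 CPM in WT, 1661 CPM in KO-1 and 1455 CPM in KO-2. At 8 h it stood at 335 CPM in WT, 2716 CPM in KO-1 and 2338 CPM in KO-2.

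Of 37 tested interferon genes and interferon-stimulated genes, Irf1 was the only one called for the change, with 15 below 0 and a median of 0.06. In level at 0 h, 14 of the 37 were higher in p53KO and none was lower by edgeR's quasi-likelihood test, where 13.7% of all genes differed in either direction (6.82% higher). At 1 h, 17 were higher and 3 lower, where 15.7% of all genes differed (7.52% higher, 8.19% lower). Isg15, a ubiquitin-like antiviral protein gene, stood at 4.65 and 3.18 CPM in WT, 25.1 and 13.7 CPM in KO-1 and 12.4 and 11.8 CPM in KO-2. Ifnb1, the gene of interferon beta, had 1 count in the WT 1 h library and none in the other 5.

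Lif (ENSMUSG00000034394, chromosome 11, 4157560 to 4172517 on mm9), a cytokine gene of the interleukin-6 family, reached 413 CPM at 1 h in WT from 30.8 CPM. KO-1 went from 22.7 to 62.4 CPM and KO-2 from 17.4 to 87.4 CPM. The 1 h levels did not overlap between genotypes, and the p53KO lines changed by 1.45 and 2.32 on the log2 scale. The difference from WT was -1.83 (SE 0.34, adjusted p = 0.0133 by edgeR). It was the only one of 23 tested cytokine and growth factor genes to be called (0.137% of all genes), where 15 lay below 0 (49.3% of all genes) and the median was -0.39. The call was lost without KO-1 at 0 h or at 1 h and with KO-2 alone, with an adjusted p of up to 0.485 by edgeR.

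For other secreted factors the difference in change did not pass the test. Ccl2, which attracts monocytes, stood at 47.9 and 401 CPM in WT, 33.5 and 131 CPM in KO-1 and 29.0 and 166 CPM in KO-2. Its difference in change was -0.82 (SE 0.21, adjusted p = 0.228 by edgeR; called by DESeq2 and with other 0 h libraries), while its level was lower in p53KO at 0 h (-0.62, adjusted p = 0.00847) and at 1 h (-1.43, adjusted p = 9.23e-09). Its neighbour Ccl7 gave -0.61 (SE 0.23) for the change and -1.72 for the level at 1 h. For Cxcl1, a neutrophil attractant, KO-1 and KO-2 reached 21.6 and 52.2 CPM against 225 CPM in WT, and its difference in change had an SE of 1.55.

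Tnf, Il6 and Cxcl2, inflammatory genes that rose in p53KO by edgeR's test, had 1 h levels that did not differ detectably. Tnf stood at 116 CPM in WT, 149 CPM in KO-1 and 131 CPM in KO-2 at 1 h, a level difference of 0.27 (SE 0.15). Il6 stood at 13.1, 9.31 and 9.59 CPM (level difference -0.47, SE 0.20), and Cxcl2 at 116, 82.0 and 76.8 CPM (level difference -0.55, SE 0.21). Their differences in change were 0.47 (SE 0.68) for Tnf, -0.04 (SE 0.45) for Il6 and 1.71 (SE 1.39) for Cxcl2, none past the threshold. The chemokine genes Ccl3 and Ccl4 reached 15.4 and 16.8 CPM in WT, and 27.1 and 30.9 CPM in KO-1, 27.9 and 29.2 CPM in KO-2, a higher level in p53KO (adjusted p = 0.00207 and 0.00637 by edgeR). Il1b was at 0 in WT at 0 h and reached 9.85 CPM in WT, 14.1 CPM in KO-1 and 14.7 CPM in KO-2. Cxcl10 was the only one of 22 tested chemokine genes called for the change, with 14 below 0 and a median of -0.26 (0.137% called and 49.3% below 0 over all genes).

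Ptgs2, the cyclooxygenase gene of prostaglandin synthesis, shows how level and change came apart. It stood at 378 and 2358 CPM in WT, 153 and 795 CPM in KO-1 and 131 and 842 CPM in KO-2. The change differed by -0.11 (SE 0.20), and the level was lower in p53KO by -1.41 (adjusted p = 6.47e-08 by edgeR) at 0 h and by -1.53 (adjusted p = 6.79e-09) at 1 h. None of 27 tested effector and adhesion genes was called for the change (16 below 0, median -0.20). In level, 8 were lower and 1 higher at 0 h, where 6.92% and 6.82% of all genes were, and 10 were lower and none higher at 1 h, where 8.19% and 7.52% were.

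The smallest p-values belonged to Klf10 and Bhlhe40, transcription factor genes outside the NF-kB list. Klf10 (ENSMUSG00000037465, chromosome 15, 38221219 to 38230464 on mm9), a zinc finger repressor known as an early response to TGF-beta, stood at 25.3 and 191 CPM in WT. KO-1 stood at 33.5 and 48.8 CPM and KO-2 at 36.4 and 54.9 CPM. The order of the genotypes was reversed between 0 and 1 h. The 1 h level was 7.55-fold the 0 h level in WT and 1.48-fold in p53KO (-2.35, SE 0.19, adjusted p = 9.66e-08 by edgeR). Bhlhe40, a basic helix-loop-helix repressor of the circadian system, went from 110 to 297 CPM in WT. It stood at 135 and 138 CPM in KO-1 and at 134 and 129 CPM in KO-2 (-1.44, SE 0.16, adjusted p = 3.02e-05 by edgeR). The lncRNA gene 0610040F04Rik overlaps it on the other strand.

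Id1 and Id3 encode helix-loop-helix proteins that block the binding of other factors to DNA. Id3 stood at 113 and 224 CPM in WT, 154 and 145 CPM in KO-1 and 150 and 166 CPM in KO-2, again with the genotypes in opposite order at 0 and 1 h (-0.96, SE 0.14, adjusted p = 0.00104 by edgeR). Id1 rose in p53KO to a lower level than in WT, from 24.9 to 89.3 CPM in WT, from 19.5 to 35.2 CPM in KO-1 and from 20.2 to 35.0 CPM in KO-2 (-1.02, SE 0.20). Id2 gave 0.13 and did not differ detectably. Hes1, a repressor of the Notch pathway, stood at 37.1 and 79.6 CPM in WT and between 39.7 and 43.8 CPM in all 4 p53KO libraries (-1.02, SE 0.18).

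Smad7, an inhibitor of TGF-beta signalling, went from 33.2 to 71.6 CPM in WT and from 28.9 to 34.4 and 33.5 CPM in KO-1 and KO-2 (-0.88, SE 0.17, adjusted p = 0.0277 by edgeR). The calls of Smad7 and Id1 were lost by DESeq2 and when any 1 of the 4 p53KO libraries was left out, and held in 7 of 14 settings. Skil, a co-repressor of Smad proteins, had the smallest called difference, with 99.1 and 217 CPM in WT, 125 and 161 CPM in KO-1 and 120 and 166 CPM in KO-2. Phf13, a chromatin reader gene, stood at 36.9 and 44.3 CPM in WT and fell in both lines, from 52.9 to 36.0 CPM in KO-1 and from 50.8 to 30.2 CPM in KO-2 (-0.91, SE 0.19, adjusted p = 0.048 by edgeR). Hes1, Phf13, Skil and Smad7 fell outside the rule for named genes and were chosen after their values were seen.

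Rnd1, whose product loosens actin fibres, stood at 13.4 and 75.5 CPM in WT, 11.01 and 14.2 CPM in KO-1 and 9.61 and 14.8 CPM in KO-2 (-1.999, SE 0.30, adjusted p = 0.00125 by edgeR). Only the WT 1 h library was high. Kctd11, an adaptor gene of ubiquitin ligases that lies close to Trp53 on chromosome 11 (69691767 to 69694487 on mm9), stood at 59.8 and 274 CPM in WT, 38.2 and 65.0 CPM in KO-1 and 37.0 and 67.3 CPM in KO-2. Its level was lower in p53KO already at 0 h (-0.67, adjusted p = 0.000544) and its change differed by -1.38 (SE 0.17, adjusted p = 9.42e-05 by edgeR). Neat1, a long noncoding RNA that builds paraspeckles, had the largest difference of the 19 called genes and the largest SE among them. It stood at 77.2 and 114 CPM in WT and fell from 149 to 32.0 CPM in KO-1 and from 102 to 33.0 CPM in KO-2 (-2.51, SE 0.45, adjusted p = 0.00944 by edgeR).

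Egr1 (ENSMUSG00000038418, chromosome 18, 35019477 to 35024638 on mm9), the one gene with a larger change in p53KO, began lower in p53KO. It stood at 347 and 1365 CPM in WT, 206 and 1440 CPM in KO-1 and 186 and 1603 CPM in KO-2. At 0 h the level was lower in p53KO by -0.83 (SE 0.13, adjusted p = 4.5e-05 by edgeR) and at 1 h the gap was 0.16 (SE 0.13, adjusted p = 0.452). The 1 h level was 3.93-fold the 0 h level in WT and 7.77-fold in p53KO, and the changes differed by 0.98 (log2, SE 0.18, edgeR adjusted p = 0.0133). The call was lost without KO-2 at 0 h or at 1 h and with KO-1 alone, with an edgeR adjusted p of up to 0.277. An unnamed gene overlaps Egr1 on the other strand.

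Other genes with positive differences did not pass the test. Egr2, of the same family, stood at 30.5 and 203 CPM in WT, 11.1 and 159 CPM in KO-1 and 11.5 and 186 CPM in KO-2 (1.20, SE 0.27, adjusted p = 0.0902 by edgeR). Ccn1, a matrix protein gene induced through serum response factor, stood at 1101 and 3023 CPM in WT, 606 and 2754 CPM in KO-1, and 550 and 2832 CPM in KO-2 (0.82, SE 0.18, adjusted p = 0.0902). At 0 h the level in p53KO was lower by -1.43 for Egr2 and -0.93 for Ccn1, and at 1 h the level differences of Egr2 and Ccn1 were -0.23 and -0.11. Fos stood at 14.9 and 125 CPM in WT, 11.97 and 151 CPM in KO-1 and 9.02 and 224 CPM in KO-2 (1.10, SE 0.37, adjusted p = 0.682). Dusp1, a phosphatase gene that shuts off MAP kinases, had 0.88, Sgk1 0.57, Irs2 0.99 and Adra1d 0.92.

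**Figure D3:**
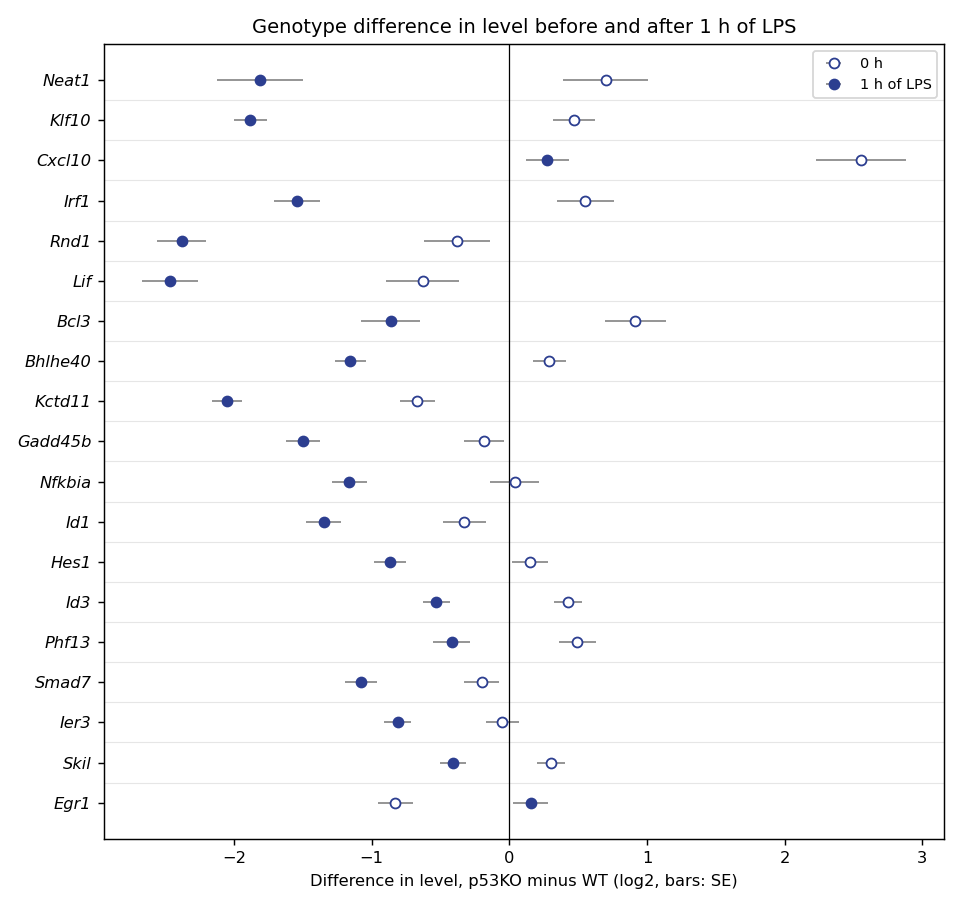
Difference in level between p53KO and WT (log2, bars are SE) of the 19 called genes at 0 h (open) and at 1 h of LPS (filled); the 2 differences share no library, and their distance is the difference in change. Cxcl10 moves from 2.55 to 0.28, Egr1 from -0.83 to 0.16 and Nfkbia from 0.04 to -1.16.

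Immediate early genes, not all of them of transcription factors, held called genes of both directions. Of 34 tested, 4 were called lower (Klf10, Id1, Id3 and Ier3) and 1 higher (Egr1), 12 lay below 0 and the median was 0.18. Their median change was 1.74 in p53KO and 1.70 in WT, and 29 rose in p53KO, as did 2.79% of all genes. In level, 15 were lower and 2 higher in p53KO at 0 h (6.92% and 6.82% of all genes), and 19 were lower and 1 higher at 1 h (8.19% and 7.52%). Btg2 is one such gene, a growth-restraining p53 target, with 124 and 948 CPM in WT, 33.5 and 265 CPM in KO-1 and 31.9 and 364 CPM in KO-2. Of 27 tested genes of MAP kinase and signalling feedback, Gadd45b was the only one called, 18 lay below 0 and the median was -0.10 (0.137% called and 49.3% below 0 over all genes). Among 10 genes of cytokine mRNA decay none was called (6 below 0, median -0.13). Zfp36 of that list stood at 42.6 and 600 CPM in WT, 27.8 and 288 CPM in KO-1 and 24.1 and 342 CPM in KO-2 (-0.21, SE 0.22).

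The LPS sensing genes showed no called difference in change. Of 29 tested receptor and adaptor genes 20 lay below 0, where 49.3% of all genes did, with a median of -0.09. Tlr4 stood at 17.2 and 22.6 CPM in WT, 10.7 and 9.79 CPM in KO-1 and 11.96 and 11.8 CPM in KO-2, and its level at 1 h was lower in p53KO by -1.06 (SE 0.21, adjusted p = 0.000794 by edgeR). Its 0 h difference of -0.60 did not pass (adjusted p = 0.0663). Cd14 reached 44.0 CPM in WT, 46.3 CPM in KO-1 and 42.1 CPM in KO-2, from 12.8 to 17.7 CPM at 0 h. Ly96 and Myd88 had differences of -0.02 (SE 0.47) and 0.16 (SE 0.18).

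Most p53 targets differed in level at each time, and none was called for the change. Cdkn1a, the cell cycle inhibitor p21, stood at 348 and 509 CPM in WT and at 20.4 to 29.95 CPM in the 4 p53KO libraries, a level difference of -3.95 (SE 0.16) at 0 h and -4.20 (SE 0.16) at 1 h. Mdm2, the ubiquitin ligase of p53, stood at 178 and 306 CPM in WT, 63.4 and 90.9 CPM in KO-1 and 64.3 and 90.3 CPM in KO-2. Of 42 tested targets 28 were lower and 1 higher in p53KO at 0 h, where 6.92% and 6.82% of all genes were, and 30 were lower and 2 higher at 1 h, where 8.19% and 7.52% were. For the change 27 lay below 0 (49.3% of all genes) and the median was -0.15. Cell cycle genes had 0 of 33 called, 5 below 0 and a median of 0.16. Serum response factor and actin genes had 0 of 20 called, 4 below 0 and a median of 0.11. Among 21 genes of short-lived transcripts and RNA polymerase II control, 1 was called lower (Bhlhe40), 17 lay below 0 and the median was -0.13.

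Genes induced by other stimuli were also followed under LPS. In the libraries of interleukin-1 beta (IL-1b, 10 ng/ml) and tumour necrosis factor (TNF, 10 ng/ml), 128 genes with a mean of at least 5 CPM at 0 and 1 h were at least 2-fold higher at 1 h, averaged over both cytokines and both genotypes. No LPS library entered this fold or this level minimum, which was chosen after the data were seen. Under LPS the differences in change of these genes had a median of -0.35 (quartiles -0.82 and 0.06), and 91 (71.1%) lay below 0, where 49.3% of all genes did. Of them 11 were called lower and 1 higher. Under the cytokines themselves the medians were -0.17 for IL-1b and -0.14 for TNF, values that share libraries with the choice of genes.

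The earlier and later times share the 0 h libraries with the 1 h comparison, and their values are given side by side. At 0.5 h of LPS those of the 19 genes had a median of -0.26 and ran from -0.43 to 0.93, and at 3 h they had a median of -0.13 and ran from -0.59 to 1.404, with Irf1 and Egr1 (1.18, adjusted p = 0.00159 by edgeR) called. At 8 h they had a median of -0.22 and ran from -1.22 (Lif) to 0.36, with none called. The share of all genes called at 3 h and at 8 h was not counted here, so these calls have no background. Bhlhe40 reached 262 CPM in WT and 263 and 289 CPM in KO-1 and KO-2 at 3 h, after 297 against 138 and 129 CPM at 1 h. Nfkbia reached 373 CPM in WT and 358 and 414 CPM in KO-1 and KO-2 at 3 h. For both genes the p53KO lines at 3 h lay around the WT level that had been reached at 1 h.

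Irf1 was lower in p53KO than in WT at 1 h and higher at 3 h. At 3 h it stood at 58.9 CPM in WT, 241 CPM in KO-1 and 217 CPM in KO-2, a difference in change from 0 h of 1.404 (SE 0.27, adjusted p = 0.00691 by edgeR). Klf10 went in WT from 191 CPM at 1 h to 78.1 CPM at 3 h, while KO-1 and KO-2 stood at 67.5 and 92.0 CPM. A comparison of the change from 1 to 3 h, which uses no 0 h library and was added after the data were seen, differed between genotypes for 206 genes (1.49%) by edgeR, 156 of them (1.13%) with a higher change in p53KO. Irf1 gave 3.50 (SE 0.24), Klf10 1.91 (SE 0.18), Lif 2.05 (SE 0.29) and Nfkbia 1.21 (SE 0.18), all called. Id3 (0.43), Id1 (0.43), Smad7 (0.29), Phf13 (0.63) and Egr1 (0.19) were not. This comparison shares the 1 h libraries with the main one. For genes chosen by a lower 1 h change in p53KO, a positive value here was favoured in advance. Their calls are therefore no separate support.

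**Figure D4:**
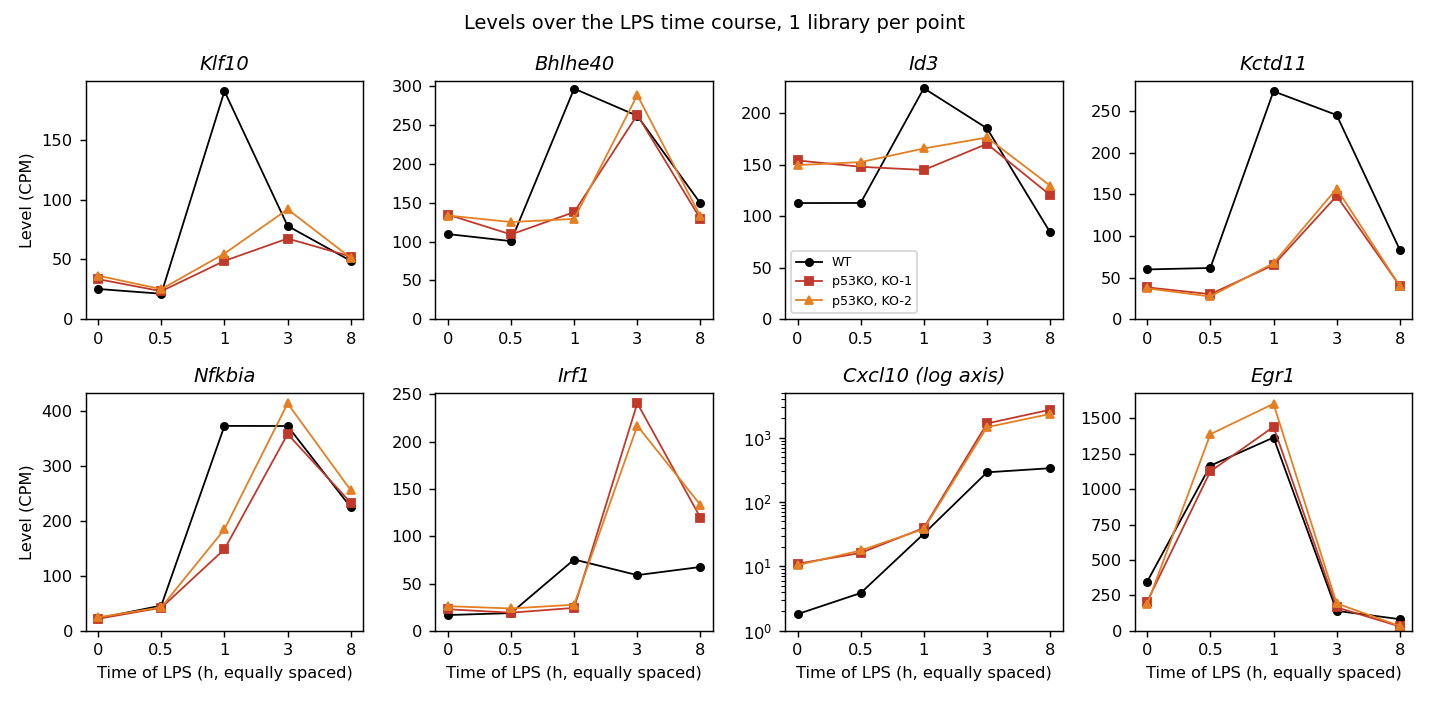
Level (CPM) of 8 called genes against time of LPS (h, equally spaced, 1 library per point) in WT (black circles), KO-1 (red squares) and KO-2 (orange triangles), with a log axis for Cxcl10. At 1 h WT is highest for Klf10, Bhlhe40, Id3, Kctd11, Nfkbia and Irf1, and by 3 h Irf1 is highest in both p53KO lines.

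IL-1b and TNF allowed the same difference to be taken in other libraries, each stimulus with its own at 0 and 1 h. The labels do not say whether the 0 h libraries came from separate cultures. For IL-1b 12 genes (0.0866%) were called by edgeR, 5 higher (0.0361%) and 7 lower (0.0505%). For TNF 10 (0.0722%) were called, 2 higher (0.0144%) and 8 lower (0.0578%). Of the 19 genes called for LPS, 7 were called for IL-1b and 8 for TNF, 6 of them for both (Klf10, Bhlhe40, Kctd11, Id1, Id3 and Egr1). Each kept its direction. Klf10 gave -1.34 (SE 0.19) for IL-1b and -1.19 (SE 0.19) for TNF, Id1 -1.55 and -1.45, and Egr1 1.35 and 1.36. The differences of these 6 genes were thus each called with 3 different WT libraries at 1 h. WT has 1 library per stimulus and time, and the same 2 p53KO lines recur, so these calls do not replicate the genotype.

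Nfkbia, Ier3 and Irf1 were among 10 of the 19 genes that were called with neither cytokine. At 1 h of IL-1b Nfkbia stood at 516 CPM in WT, 522 CPM in KO-1 and 554 CPM in KO-2, with a difference in change of 0.24 (SE 0.22). For TNF it was 0.45 (SE 0.23), against -1.20 for LPS. The test of LPS against the mean of both cytokines gave -1.55 (SE 0.27, adjusted p = 0.0839 by edgeR), short of the threshold. That test uses the same LPS libraries by which these genes were chosen. For genes chosen by a lower LPS change in p53KO, a negative value was favoured in advance and is no separate support. Irf1 had -0.30 for IL-1b and -0.63 for TNF (test of LPS against both -1.63, SE 0.32, adjusted p = 0.25), and Ier3 0.10 and 0.10 (-0.86, SE 0.19, adjusted p = 0.514). Over all genes this test called 0 by edgeR (0%), while 323 had an unadjusted p under 0.05, fewer than this limit alone would give. Alternative settings called 0 to 16 genes, the highest number with no filter on low counts.

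**Figure D5:**
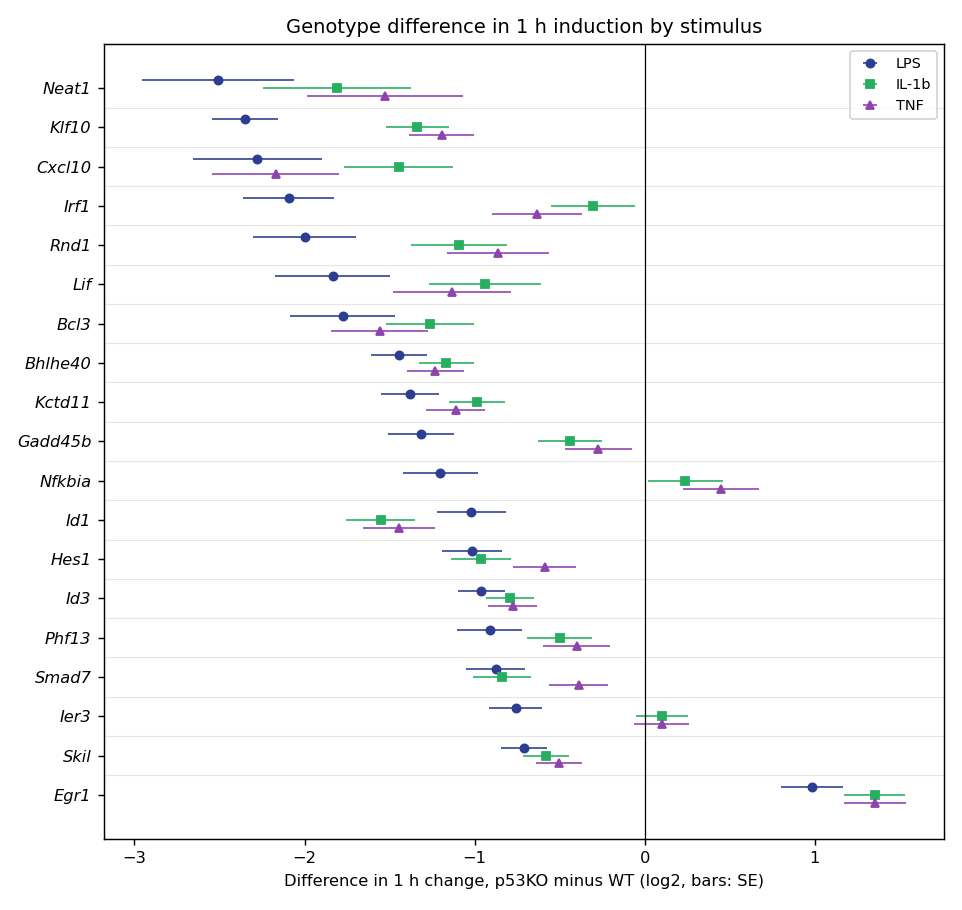
Difference between p53KO and WT in the change from 0 to 1 h (log2, bars are SE) of the 19 called genes for LPS (blue circles), IL-1b (green squares) and TNF (purple triangles). Klf10 lies at -2.35, -1.34 and -1.19, whereas Nfkbia lies at -1.20 for LPS and at 0.24 and 0.45 for the cytokines.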

How the data were processed

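RNA-seq of polyA RNA (stranded mRNA kit, paired-end reads of 50 bases, per the labels' protocols) gave 45 libraries, of which 6 form the comparison. The deposited values are raw counts per gene, and STAR, featureCounts, DESeq and mm9 are listed, without versions, in the submitters' processing notes. The strand setting of the counting is not given in the sources used here, so overlapping genes on opposite strands cannot be told apart. Rows that name no gene (24.5 to 25.0% of the 6 libraries) were left out. A gene was kept if 2 or more libraries had 1 CPM or more (13851 genes). All 45 libraries, in 30 groups, were fitted with edgeR 4.0.16 (R 4.3.3; TMM scaling, quasi-likelihood test, Benjamini-Hochberg over all genes, threshold 0.05), and CPM are TMM-scaled. DESeq2 1.42.0 served as an alternative. The fit was tested on simulated data with differences placed in well-counted genes. Of 100 genes with a log2 difference of 1 in size, 80 were called. With a log2 difference of 2 it was 98 of 100, and 8 unchanged genes were called. WT counts were simulated with the spread of the same fit, so whether WT varies like p53KO was not tested. Counting precision follows from gene totals of 8306641 to 11072939 counts.

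Genes were named by a rule: Trp53, up to 12 called genes in each direction, the strongest changes in p53KO, and a set of LPS response genes. From each pathway list the rule took the called members, or those with the smallest p where none was called. Other list members (Relb, Nfkbiz, Rela, Nfkb1, Rel, Id2, Isg15, Ccl3, Ccl4 and Btg2) and single cell type markers were described as examples outside this rule. The comparison and the gene lists were chosen with earlier results of these data known. Promoters came from a RefSeq table of GRCm38.p6 and gene positions from mm9.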

Additional observations from a re-analysis of the deposited data

Results flagged for a closer look

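The 19 results below stand out because the test of the genotype difference in the 1 h LPS change passed, and no explanation was weighed for any of them. The log2 difference, p53KO minus WT, was -2.51 for Neat1, -2.35 for Klf10, -2.28 for Cxcl10, -2.09 for Irf1 and -1.999 for Rnd1. It was -1.83 for Lif, -1.78 for Bcl3, -1.44 for Bhlhe40, -1.38 for Kctd11, -1.31 for Gadd45b and -1.20 for Nfkbia. It was -1.02 for Id1, -1.02 for Hes1, -0.96 for Id3, -0.91 for Phf13, -0.88 for Smad7, -0.76 for Ier3 and -0.71 for Skil. For Egr1 it was 0.98. Each rests on 1 WT library per time.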

How the results depend on the processing

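Neither WT library of the comparison could be left out, since no other replicate exists. Of the genes called for the difference in 1 h change (19), the count was 72 with no filter on low counts, 37 with the 6 libraries alone, 43 with all 0 h libraries pooled and 32 with the WT 0 h libraries of IL-1b and TNF. With the p53KO line as a replicate block it was 29, and all 19 genes remained called. The main test did not take the numbers KO-1 and KO-2 as a pairing. Leaving out 1 p53KO library gave 11 (KO-1 at 1 h) to 14 (KO-2 at 0 h), with 12 without KO-1 at 0 h, and KO-2 alone against WT, added after the data were seen, gave 8. DESeq2's test called 26, of which 17 were among the 19. The cause of these shifts was not tested.

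For the level at 1 h (2175 genes) the count was 1293 by DESeq2, and 1412 without KO-2 at 1 h to 1540 without KO-1. For the level at 0 h (1902) it was 1189 by DESeq2, 5243 with pooled 0 h libraries, 3276 with the other WT 0 h libraries, and 1303 to 1378 without 1 p53KO library. For the change in p53KO (736) it was 444 by DESeq2, 1422 with pooled 0 h libraries, and 390 (without KO-1 at 1 h) to 448 (without KO-2 at 0 h); without KO-1 at 0 h it was 432 and without KO-2 at 1 h 446. LPS against the cytokines called 0 genes by edgeR, 16 with no filter, 2 with the replicate block, 2 by DESeq2, and 0 to 1 without 1 p53KO library (1 without KO-2 at 1 h). Every alternative planned for these results was run. Tnfaip3, Egr2 and Ccn1, not called for the difference in 1 h change, were called by DESeq2, with the replicate block, with no filter, with the 6 libraries alone, and with either other choice of 0 h libraries. Ccl2 was called by DESeq2, with no filter, with either other choice of 0 h libraries and with KO-1 alone. Over 15 settings (the 14 above and another prior count) of the 68 named genes' differences, 933 values stayed on their side of the threshold. Of the rest, 48 lost and 39 gained a call, and none that was called changed sign. The other prior count leaves the p-values as they were, so its values were bound to stay.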
